A study of Equus caballus with 25 samples.

Results

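MMP1, MMP9 and TIMP1, a collagenase, a gelatinase and the tissue inhibitor that binds both, were described in cells recovered by bronchoalveolar lavage (BAL) from horses with and without equine asthma. MMP1 was taken by its transcript identifier, ENSECAT00000025715. MMP9 (ENSECAT00000014089) and TIMP1 (ENSECAT00000014937) could be found only through the study's own lists of changed transcripts, the sole source of gene symbols for this array, so that all 3 were already known to differ in some comparison of these same horses. They are 3 of the 7238 equine transcripts on the array, each measured at 2 spots, and 3 of 3 passed the filter on low values that left 4930 transcripts to test.

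RNA from BAL cells of 25 client-owned horses was hybridized to one-color arrays, 1 array per horse. Affected horses were sampled when they came in as clinical cases, and owners enrolled the healthy ones. The labels name the groups Control, IAD and RAO, which the study calls CTRL (healthy), MEA (mild asthma) and SEA (severe asthma). The 7 CTRL horses were clinically healthy standardbreds, and the 10 MEA-affected and 8 SEA-affected horses were mostly saddle horses with some standardbreds. Sexes were near balance. SEA-affected horses were older than both other groups, whose ages were alike, so that age cannot be told apart from group in comparisons with SEA, nor breed in comparisons with CTRL. MEA-affected horses were selected for neutrophils at cytology and against mast cell or eosinophil inflammation, so that the neutrophil percentage is part of the group's definition. Horses are named below by group and replicate, as in SEA 1. Levels are normalized log2 intensities, which can be compared between horses for a given probe but not between probes. The share of spots well above background stood in for depth and ran from 58.2% in MEA 2 to 90.8% in SEA 6. With 1 array per horse, precision is set by how many arrays each group holds.

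Interstitial collagenase (MMP1) opens the triple helix of fibrillar collagen, which most other proteases cannot attack, and the gelatinase MMP9 digests the denatured chains as well as basement membrane collagen. Both enzymes are secreted as inactive zymogens, MMP9 also from stored granules of neutrophils, and TIMP1 blocks the active enzymes by filling the catalytic cleft. In the airway these proteins are known from macrophages, neutrophils and structural cells, and transcript levels measure neither zymogen activation nor enzyme activity.

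The probes differ in the kind of sequence they read, which is why levels are compared between horses only. Each has 60 bases, with a GC content of 35% for MMP1, 55% for MMP9 and 38.3% for TIMP1. The MMP9 and TIMP1 probes can each be translated without a stop in 1 of 3 forward frames, and in the MMP1 probe 0 of 3 is free of stops, as in 13% of the 7238 probes. The TIMP1 probe holds the polyadenylation motif AATAAA, searched on the forward strand and set in capitals below, with 7 bases after it. That motif lies in 5.33% of the 7238 probes. The probes are given here whole for MMP9, by the first 30 bases for MMP1 and by the last 30 bases for TIMP1.
MMP9: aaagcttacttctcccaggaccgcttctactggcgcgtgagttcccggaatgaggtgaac
MMP1: agaacatctgagctgctactagtattatcc
TIMP1: tttctccaagacagtgaAATAAAgaactac
Compared with the other 7237 probes in the same direction, the longest identical run was 11 bases for MMP1, 12 for MMP9 and 13 for TIMP1. In the telomere-to-telomere horse assembly of the reference gene table, used for names only, MMP1 lies between the related proteases MMP8 and MMP3. MMP9 lies between ZNF335 and SLC12A5, and TIMP1 between SYN1 and CFP. On all 25 arrays both spots of each of the 3 probes were well above background and none was saturated. The median difference between the 2 spots of a probe was at most 0.15 in any group, small beside the differences among horses.

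MMP1 was the member that separated the SEA-affected horses. Its level in CTRL ran from 8.96 in CTRL 1 through a median of 10.02 to 11.15 in CTRL 7. In MEA it ran from 8.89 in MEA 8 through 10.16 to 13.42 in MEA 3. In SEA it ran from 12.12 in SEA 1 through 13.15 to 14.28 in SEA 2. The 8 SEA-affected horses all lay above the 7 CTRL horses, whereas the MEA group stretched from below the lowest CTRL horse into the SEA range through MEA 5 (12.63) and MEA 3. The group means were 10.09 ± 0.89 (SD, n = 7) in CTRL, 10.68 ± 1.48 (n = 10) in MEA and 13.21 ± 0.78 (n = 8) in SEA. MEA spread over a 23.2-fold range, against 4.57-fold in CTRL and 4.45-fold in SEA. The SD of MMP1 in MEA exceeded that of 97.2% of the tested transcripts.

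MMP9 was the most variable of the 3 genes among the healthy horses. It ran from 6.97 in CTRL 4 through 8.75 to 11.44 in CTRL 2, a 22.3-fold range. In MEA it ran over a wider 35.5-fold range, from 7.68 in MEA 8 through 8.92 to 12.83 in MEA 3, the highest of the 25 horses. In SEA it ran from 8.70 in SEA 1 through 11.28 to 12.47 in SEA 6. CTRL 2, CTRL 7 (10.72), CTRL 3 (10.28) and, just above SEA 1, CTRL 6 (8.75) lay within the SEA range. CTRL 4, CTRL 5 (7.52) and CTRL 1 (7.76) lay below it, and the 3 groups overlapped. The means were 9.06 ± 1.76 (SD, n = 7) in CTRL, 9.24 ± 1.47 (n = 10) in MEA and 10.94 ± 1.26 (n = 8) in SEA. CTRL and MEA means did not differ beyond that spread. The SD of MMP9 in CTRL exceeded that of 98.8% of the tested transcripts.

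TIMP1, the inhibitor, was ordered CTRL, MEA, SEA by its means, with wide overlap. Its level in CTRL ran from 11.95 in CTRL 1 through 12.39 to 14.38 in CTRL 7. In MEA it ran from 12.34 in MEA 9 through 13.68 to 15.44 in MEA 6. In SEA it ran from 12.30 in SEA 1 through 14.33 to 14.96 in SEA 7. SEA 1 was far below the other SEA-affected horses and inside the CTRL range, and the 2 highest levels of all belonged to MEA 6 and MEA 3 (15.21). The means were 12.86 ± 0.92 (SD, n = 7) in CTRL, 13.66 ± 1.09 (n = 10) in MEA and 14.17 ± 0.84 (n = 8) in SEA. MEA and SEA means lay within 1 SD of each other.

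**Figure D1:**
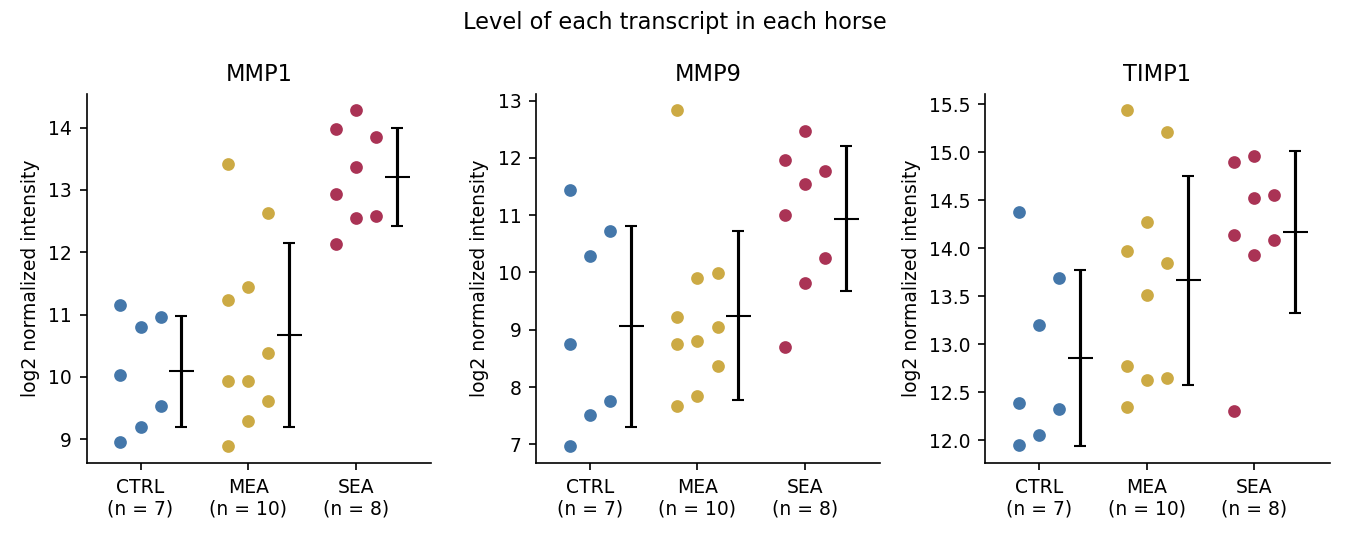
Normalized log2 intensity of MMP1, MMP9 and TIMP1 in each of 25 horses by group, with group means and SD. MMP1 of the 8 SEA-affected horses lies at 12.12 or above, over the highest CTRL horse at 11.15, while MMP9 and TIMP1 overlap between groups.

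SEA-affected horses were compared with CTRL to ask what sets severe asthma apart from health. MMP1 rose 8.67-fold (95% CI 4.8 to 15.7), a log2 difference of 3.12 (SE 0.40) with a limma adjusted p of 0.000896. By fold change it ranked 12 of the 4930 transcripts and by p it ranked 3. TIMP1 rose 2.49-fold (95% CI 1.34 to 4.64), a log2 difference of 1.32 (SE 0.42) with a limma adjusted p of 0.0323. MMP9 rose 3.67-fold (95% CI 1.3 to 10.4), a log2 difference of 1.88 (SE 0.71) with a limma adjusted p of 0.0592. With the threshold at an adjusted p below 0.1 and a fold of at least 1.5, 3 of 3 members were called higher, against 16% of the 4930 transcripts tested, and 0 of 3 lower, against 16.7%. The members were picked from the study's own list of such changes, so that this count is a description. MMP1 alone had groups that did not overlap (8 of 8 SEA above the highest CTRL horse), against 1.56% of tested transcripts with every SEA horse higher. For MMP9, 4 of 8 SEA-affected horses exceeded the highest CTRL horse, and for TIMP1 4 of 8 did. In pairs of 1 SEA and 1 CTRL horse, SEA was higher in 56 of 56 for MMP1, 45 of 56 for MMP9 and 48 of 56 for TIMP1.

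The arrays lay on 4 slides, each with horses of every group. Some groups had a single horse on a slide: slide 3 held 1 MEA-affected horse, and slide 4 held 1 CTRL horse beside 5 MEA-affected horses. Within slides 1 to 4, SEA minus CTRL for MMP1 was 2.16, 3.35, 3.87 and 1.39 on the log2 scale, higher in SEA on each slide. For MMP9 it was -0.90, 3.11, 2.48 and 1.04, with slide 1 resting on SEA 1 alone. For TIMP1 it was -0.52, 2.15, 1.85 and -0.24, so that the pooled direction held on slides 2 and 3, where 3 SEA-affected horses met 2 CTRL horses, and not on slides 1 and 4, which hold 1 SEA-affected horse each. The MMP9 call was lost when CTRL 1, CTRL 4, CTRL 5 or SEA 2 was left out (limma adjusted p 0.125, 0.129, 0.114 and 0.105). It was also lost by the exact rank sum test (adjusted p 0.130) and at an adjusted p below 0.05 (limma 0.0592), within a range of 0.0346 to 0.130 over the alternatives.

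MEA-affected horses were compared with CTRL to ask whether mild disease shows the same transcripts. MMP1 differed by 0.59 (SE 0.57, limma adjusted p 0.556), with 4 of 10 MEA horses above the highest CTRL horse. MMP9 differed by 0.18 (SE 0.71, adjusted p 0.901 by limma), with 1 of 10 above. Its sign turned without CTRL 1 (-0.03), CTRL 4 (-0.17), CTRL 5 (-0.08) or MEA 3 (-0.22), and without MEA 3 the MMP1 difference was 0.28. TIMP1 differed by 0.81 (SE 0.46, adjusted p 0.306 by limma), with 2 of 10 above. Among the members limma called 0 of 3 higher, against 3.25% of all transcripts tested, and 0 of 3 lower, against 6.53%. At an unadjusted p below 0.05 the count was also 0. The exact rank sum test called 0 as well. The 95% interval for MMP1 reached from -0.61 to 1.78, so a difference as large as that of SEA was outside it. With replicate number as a block the difference was 0.91 for MMP1 and 0.60 for MMP9, and with slide as a block it was 0.0023 for MMP9, none of them called by limma. Groups did not overlap for 0 of 3 members, against 0.101% of tested transcripts with MEA wholly higher. Within slides 1 to 4, MEA minus CTRL was -0.03, 1.9, 1.28 and -0.67 for MMP1. For TIMP1 the same differences were 0.49, 1.27, 2.64 and -0.84, and for MMP9 they were -0.04, 1.68, -0.72 and -1.39. The slide 3 values rest on MEA 6 alone, and those of slide 4 on CTRL 7 as the only healthy horse.

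The SEA and MEA groups were compared directly, since both other comparisons share the 7 CTRL horses. MMP1 rose 5.78-fold in SEA over MEA (95% CI 2.65 to 12.6), a log2 difference of 2.53 (SE 0.54) with a limma adjusted p of 0.0546. It was higher in SEA in 72 of 80 pairs of horses, and 8 of 10 MEA-affected horses lay below the lowest SEA-affected horse. MMP9 differed by 1.69 (SE 0.61, limma adjusted p 0.148) and TIMP1 by 0.51 (SE 0.44, limma adjusted p 0.516). Thus 1 of 3 members was called higher, against 1.44% of the transcripts tested, and 0 of 3 lower, against 0.791%. In this comparison 0 of 3 had groups that did not overlap, against 0.0609%. Within slides 1 to 4, SEA minus MEA was 2.19, 1.45, 2.59 and 2.06 for MMP1, higher in SEA on each. For MMP9 it was -0.87, 1.44, 3.19 and 2.43, and for TIMP1 -1.01, 0.87, -0.79 and 0.60. Slides 1 and 4 held 1 SEA-affected horse each, and slide 3 held 1 MEA-affected horse. The TIMP1 difference was 0.08 with slide, 0.22 with scan day and 0.32 with replicate number as a block.

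The MMP1 call between SEA and MEA sat close to the threshold. It was lost without SEA 2, MEA 7 or MEA 10 (limma adjusted p 0.144, 0.105 and 0.114), although the difference itself stayed between 2.33 and 2.84 whichever horse was left out. Of 15 alternatives, 7 ended the call. With slide, scan day or replicate number as a block in the limma fit the difference was 1.99, 2.15 and 2.47 (adjusted p 0.270, 0.270 and 0.276). Replicate numbers did not pair horses, so that the last block removes no known source of variation. It also left out horses whose number the other group lacked. With scaling to the 75th percentile it was 2.6 (limma adjusted p 0.131) and with normexp background correction 2.43 (limma adjusted p 0.104). The exact rank sum test gave an adjusted p of 0.119, and the value of 0.0546 itself misses a threshold of 0.05. Over the 15 alternatives the adjusted p ran from 0.0194 to 0.276. MMP9 in turn was called between SEA and MEA without MEA 3 (2.09, limma adjusted p 0.0209) or without SEA 1 (2.01, limma adjusted p 0.0683).

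**Figure D2:**
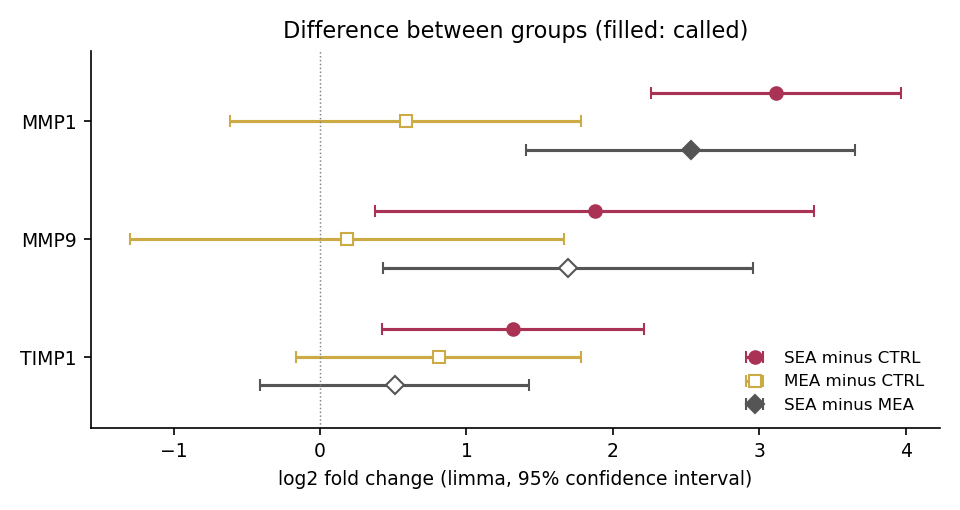
Log2 fold change with 95% confidence interval for MMP1, MMP9 and TIMP1 in SEA versus CTRL, MEA versus CTRL and SEA versus MEA (filled where called). MMP1 stands at 3.12 and 2.53 in the comparisons that include SEA and at 0.59 in MEA versus CTRL.

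The balance of protease to inhibitor was taken in each horse as the log2 level of the protease minus that of TIMP1, and is given relative to the CTRL mean, so that 0 is the average healthy horse. It was not tested, because the genes had been chosen with results known. The MMP1 balance in CTRL was held in a narrow band, from -0.46 in CTRL 7 through -0.09 to 0.47 in CTRL 4 (SD 0.32, n = 7). In MEA it ran from -2.32 in MEA 8 through -0.32 to 1.65 in MEA 9. In SEA it ran from 0.82 in SEA 5 through 1.71 to 2.66 in SEA 6. The 8 SEA-affected horses all had a balance above the highest CTRL horse, with a gap of 0.35 between SEA 5 and CTRL 4. The SEA mean was 1.80 ± 0.64 (SD, n = 8), a 3.48-fold shift toward the protease. Within slides 1 to 4, SEA minus CTRL was 2.68, 1.2, 2.02 and 1.63, toward the protease on each.

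In MEA the MMP1 balance went both ways. MEA 9 (1.65), MEA 5 (1.12), MEA 3 (0.97) and MEA 4 (0.50) lay above all 7 CTRL horses. MEA 8, MEA 6 (-1.23), MEA 2 (-1.15), MEA 10 (-1.14) and MEA 7 (-0.57) lay below all of them, and MEA 1 was inside the CTRL band. The MEA mean was therefore near that of CTRL, at -0.22, with a spread of 1.27 (SD, n = 10) that was wider than in the other groups. SEA exceeded MEA by 2.02 on the log2 scale (4.06-fold), with SEA higher in 93.8% of pairs of horses and 5 of 8 SEA-affected horses above every MEA-affected horse. Within slides 1 to 4 this difference was 3.2, 0.58, 3.38 and 1.46.

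SEA 1 shows how the balance and the levels can part. It had the lowest MMP1, MMP9 and TIMP1 of the SEA group, yet its MMP1 balance of 2.59 was the second highest of the 25 horses. MEA 9 reached its high balance with the lowest TIMP1 of its group (12.34) and an MMP1 of 11.23, just above the highest CTRL horse (11.15). MEA 6, with the highest TIMP1 of all, had MMP1 at 11.45 and a low balance.

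The MMP9 balance overlapped between the groups. In CTRL it ran from -1.57 in CTRL 4 through 0.14 to 1.55 in CTRL 2 (SD 1.03, n = 7). In MEA it ran from -2.84 in MEA 6 through -0.66 to 1.41 in MEA 3. In SEA it ran from -0.49 in SEA 5 through 0.31 to 2.18 in SEA 6. SEA 6 alone of the 8 SEA-affected horses exceeded every CTRL horse, and the groups lay over one another. The means were -0.63 ± 1.38 (SD, n = 10) in MEA and 0.56 ± 0.89 (n = 8) in SEA, and the distance of SEA from CTRL was under the pooled SD of 0.96. SEA was higher than CTRL in 67.9% of pairs and higher than MEA in 77.5%, with 2 of 8 SEA-affected horses above every MEA-affected horse. Within slides 1 to 4, SEA minus CTRL was -0.38, 0.97, 0.63 and 1.28. SEA minus MEA was 1.19 over all horses (2.27-fold), about the size of the pooled SD, and 0.14, 0.57, 3.98 and 1.82 within the slides, higher in SEA on each.

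**Figure D3:**
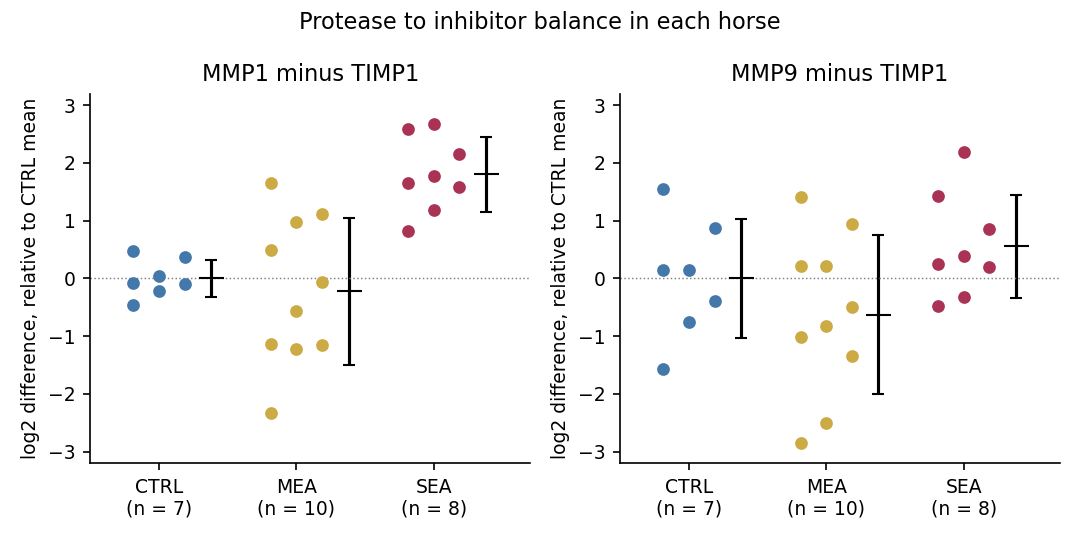
Log2 MMP1 minus TIMP1 and log2 MMP9 minus TIMP1 in each of 25 horses, relative to the CTRL mean, with group means and SD. The MMP1 balance of the 8 SEA-affected horses runs from 0.82 to 2.66, above the CTRL band of -0.46 to 0.47, and MEA-affected horses lie on both sides of it.

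Protease and inhibitor levels were correlated among the healthy horses. Within CTRL, MMP1 and TIMP1 had a Pearson r of 0.937 (exact permutation p 0.000992, adjusted 0.00893 over 9 pairs) and a Spearman rho of 0.964 (exact p 0.00278, adjusted 0.025). Without the 2 horses farthest from the median of MMP1, r was 0.942. MMP9 and TIMP1 in CTRL had an r of 0.888 (exact p 0.0115, adjusted 0.0345), a rho of 0.821 (exact p 0.0341, adjusted 0.154) and an r of 0.856 without 2 horses. MMP1 and MMP9 in CTRL had an r of 0.837 (exact p 0.0363, adjusted 0.0545), a rho of 0.714 (exact p 0.0881, adjusted 0.159) and an r of 0.804 without 2 horses. These 9 pairs were chosen after the values had been seen. The slides hold 1 to 5 horses of a group, too few for a correlation within a slide.

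In the disease groups r was lower without 2 horses for each of the 3 pairs. In MEA, MMP1 and TIMP1 had an r of 0.547 (permutation p 0.102, adjusted 0.114) and a rho of 0.418 (p 0.232, adjusted 0.298), and r was 0.193 without 2 horses. MMP1 and MMP9 in MEA had an r of 0.746 (permutation p 0.0103, adjusted 0.0345) and a rho of 0.588 (p 0.0798, adjusted 0.159), and r fell to 0.174 without 2 horses. MMP9 and TIMP1 in MEA had an r of 0.452 (permutation p 0.192, adjusted 0.192) and a rho of 0.333 (p 0.350, adjusted 0.350), with 0.187 without 2 horses. In SEA, MMP1 and TIMP1 had an r of 0.687 (exact p 0.0325, adjusted 0.0545) and a rho of 0.595 (exact p 0.132, adjusted 0.198), and r was 0.301 without 2 horses. MMP9 and TIMP1 in SEA had an r of 0.709 (exact p 0.0442, adjusted 0.0568) and a rho of 0.452 (exact p 0.267, adjusted 0.301), and r turned to -0.247 without 2 horses. MMP1 and MMP9 in SEA had an r of 0.768 (exact p 0.0284, adjusted 0.0545) and a rho of 0.714 (exact p 0.0576, adjusted 0.159), with 0.578 without 2 horses. Whether the correlation differs between groups was not tested.

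**Figure D4:**
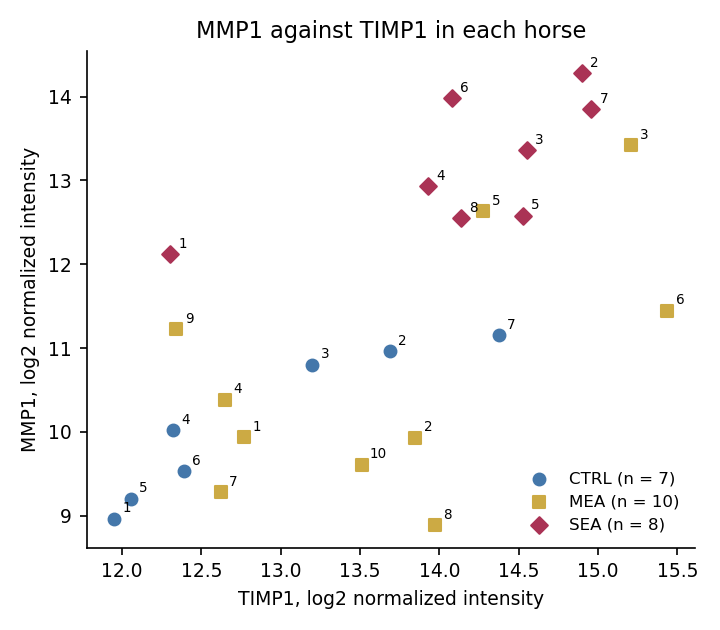
MMP1 against TIMP1, both as normalized log2 intensity, for each of 25 horses by group. CTRL horses follow a line (r 0.937), and the SEA-affected horses lie above it at a given TIMP1 level.

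Cytology percentages, matched to arrays by the horse codes that the array titles share with the study's cytology, ordered the groups without overlap. The neutrophil percentage of each of the 8 SEA-affected horses exceeded that of each MEA-affected and CTRL horse, and that of each of the 10 MEA-affected horses exceeded that of each CTRL horse. Macrophage percentages ran the opposite way. MMP1 levels overlapped between MEA and CTRL, whose neutrophil percentages did not. Those percentages were low in both groups beside SEA, where neutrophils prevailed. The part of neutrophil number in the MMP1 difference was not tested. Because the groups form separate clusters, no correlation with a percentage is given over all 25 horses. In such mixed samples more cells of a type and more RNA per cell cannot be told apart.

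Within groups, the 3 genes were set against both percentages, 18 relations in all, and 0 passed at an adjusted p below 0.1 (the smallest was 0.65 by Pearson and 0.831 by Spearman permutation tests). Both percentages spanned a narrow range within CTRL and within MEA, and each group held few horses. The lack of calls there cannot tell whether a relation exists. In SEA, MMP1 had an r of -0.496 with the neutrophil percentage (exact p 0.212, adjusted 0.791) and a rho of -0.524 (exact p 0.197, adjusted 0.831), and r was -0.183 without SEA 6 and SEA 8. With the macrophage percentage in SEA its r was 0.560 (exact p 0.144, adjusted 0.791) and its rho 0.643 (exact p 0.0962, adjusted 0.831), and r was 0.333 without those 2 horses. These are mirror values, because neutrophil and macrophage percentages were nearly complementary in SEA (r -0.993, exact p 7.44e-05; rho -0.976, exact p 0.000397). SEA 6 had the lowest neutrophil percentage of its group with the second highest MMP1 and the highest MMP9. SEA 8 had the highest neutrophil percentage and ranked 7 of 8 for MMP1 and 3 of 8 for MMP9.

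MMP9, a granule protease of neutrophils, had no called relation to their percentage. Its r in SEA was -0.345 with the neutrophil percentage (exact p 0.409, adjusted 0.891; rho -0.333, exact p 0.428) and 0.390 with the macrophage percentage (exact p 0.346, adjusted 0.891; rho 0.429, exact p 0.299). Without SEA 6 and SEA 8 these were -0.110 and 0.273. TIMP1 in SEA had an r of 0.0810 with the neutrophil percentage (exact p 0.831, adjusted 0.987; rho 0.0238, exact p 0.977) and 0.0128 with the macrophage percentage (exact p 0.974, adjusted 0.987; rho 0.143, exact p 0.752). Without SEA 6 and SEA 8 these were 0.113 and 0.0805.

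In MEA the r of MMP1 was -0.275 with neutrophils (permutation p 0.446) and 0.228 with macrophages (permutation p 0.530), with rho of -0.207 and 0.341. For MMP9 in MEA it was -0.00653 with neutrophils (permutation p 0.987) and 0.0644 with macrophages (permutation p 0.863), with rho of 0.213 and 0.0671. For TIMP1 in MEA it was 0.103 with neutrophils (permutation p 0.775) and -0.329 with macrophages (permutation p 0.351), with rho of 0.122 and -0.195. Without the 2 farthest horses, r with neutrophils in MEA was -0.106, -0.196 and 0.482 for MMP1, MMP9 and TIMP1, and r with macrophages was 0.488, -0.0235 and 0.232. The adjusted p of these 6 was 0.891 or above by Pearson and 0.831 or above by Spearman. In CTRL the neutrophil percentage had an r of 0.0593, 0.157 and 0.152 with MMP1, MMP9 and TIMP1 (exact p 0.894, 0.706 and 0.758), with rho of 0.236, 0.127 and 0.236. Without CTRL 2 and CTRL 5 these r were larger, at 0.610, 0.495 and 0.806.

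By Pearson r, though not by Spearman rho, the strongest of the 18 relations was that of the macrophage percentage in CTRL with TIMP1 (r -0.757, exact p 0.0361, adjusted 0.65; rho -0.450, exact p 0.311). It rested on CTRL 2 and CTRL 7, without which r was 0.378. With MMP1 the r in CTRL was -0.531 (exact p 0.205, adjusted 0.791; rho -0.450) and with MMP9 it was -0.523 (exact p 0.220, adjusted 0.791; rho -0.595), and both also changed sign without those 2 horses, to 0.444 and 0.209.

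Neutrophil marker transcripts were examined beside the counted cells, which they did not follow in every horse. The markers were CSF3R, the receptor for granulocyte colony-stimulating factor, the IgA receptor FCAR, the amplifying receptor TREM1 at 2 probes, and the granule protein LTF. All are genes the study had listed as changed in these horses, and macrophages can also express TREM1 and FCAR. Between SEA and CTRL, 4 of 5 rose and 1 fell (4 called by rank sum), with a median log2 difference of 2.53 against -0.01 over all tested transcripts. The TREM1 probes rose by 3.6 and 3.5 (limma adjusted p 0.0117 and 0.0120), whereas LTF fell by 2.1 (limma adjusted p 0.0511). Between MEA and CTRL 1 of 5 was called, LTF, which fell by 1.77 (limma adjusted p 0.0606), a call lost by rank sum (0 of 5), and the median was 0.61. Between SEA and MEA limma called 0 of 5 (2 at an unadjusted p below 0.05, 0 by rank sum), with a median of 1.87. In every horse 5 of 5 marker probes were well above background. The mean level of the 5 stood at 10.30 ± 1.29 (SD, n = 7) for CTRL horses, 10.46 ± 1.79 (n = 10) for MEA and 12.19 ± 1.9 (n = 8) for SEA. Over the 25 horses it was highest in MEA 3 (14.71), which also had the highest MMP9. It was lowest in SEA 1 (8.03), under the lowest CTRL horse (8.62), although the neutrophil percentage matched to SEA 1 exceeded that of every CTRL and MEA-affected horse. This mismatch was not explained.

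Horse by horse, the mean of the neutrophil markers moved with the proteases. In SEA its r was 0.831 with MMP1 (exact p 0.00171, adjusted 0.0103 over 24 relations; rho 0.857, adjusted 0.0852) and 0.891 with MMP9 (exact p 0.00122, adjusted 0.0103; rho 0.833, adjusted 0.0852). Without the 2 horses farthest from the median these were 0.895 and 0.682. With TIMP1 in SEA the r was 0.862 (exact p 0.0271, adjusted 0.0812) while rho was 0.595 (exact p 0.132, adjusted 0.289), and r was 0.891 without 2 horses. In CTRL the r was 0.987 with MMP1 (exact p 0.000397, adjusted 0.00952; rho 0.964), 0.889 with MMP9 (exact p 0.0190, adjusted 0.0653; rho 0.75) and 0.931 with TIMP1 (exact p 0.00159, adjusted 0.0103; rho 0.929). Without 2 horses the CTRL values were 0.982, 0.729 and 0.971. In MEA the r was 0.747 with MMP1 (permutation p 0.0117, adjusted 0.0468; rho 0.6), 0.896 with MMP9 (permutation p 0.00358, adjusted 0.0172; rho 0.745) and 0.428 with TIMP1 (permutation p 0.220, adjusted 0.407; rho 0.248). The MEA relations rested on 2 horses, without which r was 0.0579, 0.455 and -0.220. Of these 9 relations 8 had an adjusted p below 0.1 by Pearson and 5 by Spearman. How many of all tested transcripts are related as closely was not counted. After subtracting group means over the 25 arrays, r was 0.853 for MMP1 with DDIT3 and 0.909 for MMP9 with DUSP1, neither in the marker list. Whether the relation is particular to neutrophil markers was not tested.

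The same marker mean had no called relation to the neutrophil percentage in any of the 3 groups (adjusted p 0.485 or above by Pearson and 0.302 or above by Spearman). Its r with that percentage was 0.0855 in CTRL (exact p 0.821, rho 0.273), -0.318 in MEA (permutation p 0.391, rho -0.231) and -0.334 in SEA (exact p 0.344, rho -0.571). Without the 2 farthest horses it was 0.607 in CTRL, -0.241 in MEA and, with the sign changed, 0.0604 in SEA. The mean of 7 macrophage marker transcripts had an adjusted p below 0.1 with 0 of 9 (the smallest was 0.210, with MMP9 in SEA, r -0.642, exact p 0.0876, rho -0.714). With the macrophage percentage its r was -0.394 among CTRL horses (exact p 0.290, rho -0.450) and -0.281 among MEA-affected horses (permutation p 0.434, rho -0.360). Among SEA-affected horses it was -0.701 (exact p 0.0515, adjusted 0.137; rho -0.738). Without the 2 farthest horses these were -0.347, -0.102 and -0.687. These 24 relations were chosen after the values had been seen, and the part of cell composition in the MMP1 difference was not tested.

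**Figure D5:**
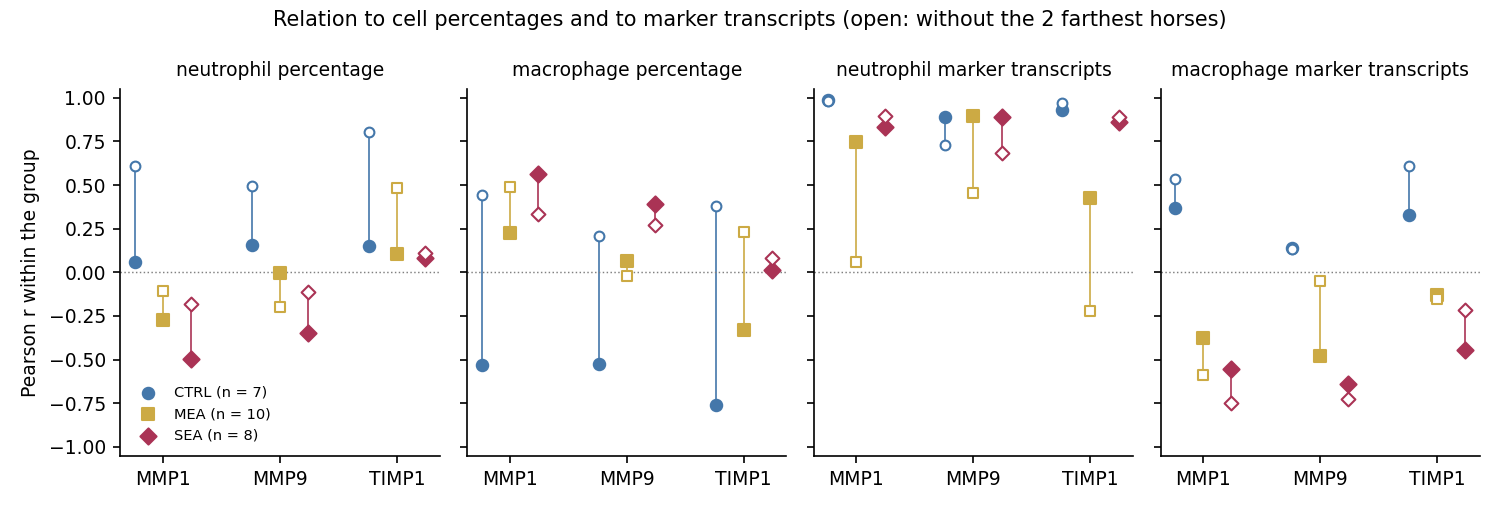
Pearson r of MMP1, MMP9 and TIMP1 within each group with the neutrophil and macrophage percentages and with the mean of each cell's marker transcripts, over all horses of a group (filled) and without the 2 farthest (open). Among the 18 relations to counted percentages 0 had an adjusted p below 0.1, and r with the neutrophil markers was 0.831 or above in CTRL and SEA.

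Other metzincins, the zinc protease family of MMP1 and MMP9, changed in both directions in SEA. Of 4 tested, 2 rose and 2 fell against CTRL (3 called by rank sum), with a median of -0.09, which turned to 0.01 with normexp background correction and was -0.29 with scaling to the 75th percentile. The macrophage and dendritic cell protease ADAMDEC1 rose by 2.20 (limma adjusted p 0.0589) and MMP19 by 0.91 (limma adjusted p 0.0333). The membrane-bound MMP15 fell by 1.10 (limma adjusted p 0.0245) and ADAMTS8 fell by 1.88 (limma adjusted p 0.0248). In MEA against CTRL, MMP19 rose by 1.0 (limma adjusted p 0.0834) and ADAMTS8 fell by 1.43 (limma adjusted p 0.0730), with a median over the 4 of 0.44 (0.17 with normexp) against 0.03 over all tested transcripts. The rank sum test called 1 of 4 there. Limma called 0 of 4 between SEA and MEA (1 at an unadjusted p below 0.05, 0 by rank sum), with a median of -0.27 against -0.04. As for each list below, the symbols come from transcripts the study had found changed, so that the counts carry no independent evidence of direction. Over all 4930 tested transcripts 16% were called higher and 16.7% lower in SEA against CTRL (median -0.01), 3.25% and 6.53% in MEA against CTRL (median 0.03), and 1.44% and 0.791% between SEA and MEA (median -0.04).

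Among 6 other matrix-degrading enzymes, 2 fell in SEA against CTRL (4 called by rank sum), with a median of -0.65 that was -0.39 with normexp. The lysosomal cathepsin CTSF fell by 0.85 (limma adjusted p 0.0116) and the hyaluronidase HYAL1 fell by 1.14 (limma adjusted p 0.0180). The collagen-degrading cathepsin CTSK was 1.2 higher in SEA without passing (limma adjusted p 0.102). MEA-affected horses had 4 of 6 lower than CTRL, HYAL1, HYAL2, CTSF and HTRA1, with a median of -0.79 (-0.45 with normexp) and 4 called by rank sum. The comparison of SEA with MEA had 0 of 6 called by limma, 0 at an unadjusted p below 0.05 and 0 by rank sum, with a median of 0.25.

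The plasminogen activator system, whose product plasmin can activate MMP zymogens, was measured by 4 tested transcripts. Of these 3 rose in SEA against CTRL by limma (2 called by rank sum), against 16% of all tested, with a median of 1.67 against -0.01. A transcript that the study names both SERPINB2 and SERPINB10 (ENSECAT00000003487) rose by 2.88 (limma adjusted p 0.00376), and PLAUR, the urokinase receptor, rose by 2.41 (limma adjusted p 0.0128). SERPINE2, an inhibitor of plasminogen activators, rose by 0.93 (limma adjusted p 0.0625). The activator PLAT was not called (-0.76, limma adjusted p 0.281). Against CTRL in MEA limma called 0 of 4 (0 at an unadjusted p below 0.05, 0 by rank sum), with a median of 0.35. Between SEA and MEA 1 of 4 rose, the SERPINB2/SERPINB10 transcript (2.59, limma adjusted p 0.0542), with a median of 1.16.

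Serine protease inhibitors were measured by 7 tested transcripts, of which 5 fell in SEA against CTRL by limma and 2 were called by rank sum. The median was -1.51, and -0.30 with normexp background correction. Per horse, as few as 5 of the 8 inhibitor probes were well above background in CTRL, 3 in MEA and 2 in SEA. The sizes of these differences are thus not exact. The epithelial inhibitors SPINT2 and SPINT1 fell, with log2 differences of -2.09 and -2.02 (limma adjusted p 0.0198 and 0.0185), and 3 of 4 probes of SERPINA1, the inhibitor of neutrophil elastase, also fell. In MEA against CTRL 6 of 7 fell (the rank sum test called 6), with a median of -1.25 that was -0.28 with normexp. For SEA over MEA limma called 0 of 7 (0 at an unadjusted p below 0.05, 0 by rank sum), with a median of -0.37. The 6 epithelial marker transcripts had the same direction, with 5 lower in SEA against CTRL (5 by rank sum; median -2.05), 4 lower in MEA against CTRL (2 by rank sum; median -1.37) and 0 called between SEA and MEA by limma (0 at an unadjusted p below 0.05, 0 by rank sum; median -0.61). Their mean level was 9.0 ± 0.63 (SD, n = 7) in CTRL, 7.70 ± 0.72 (n = 10) in MEA and 7.01 ± 1.33 (n = 8) in SEA, where SEA 1 (4.42) was the lowest of the 25 horses and widened the distance from MEA. SEA 1 was also the lowest of all for the mean of the 8 inhibitor probes (3.0) and of the 16 matrix component probes (5.75), and the lists were not tested again without it. The part of epithelial cells in the inhibitor result was not tested.

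Among 13 matrix component transcripts, 5 rose and 7 fell in SEA against CTRL by limma, against 16% and 16.7% of all tested, and 9 were called by rank sum. The median was -1.23 against -0.01, and -0.27 with normexp background correction. Osteopontin (SPP1), a secreted matrix protein of macrophages, rose by 3.46 (limma adjusted p 0.0123). The basement membrane genes COL18A1, at 2 probes, and LAMA3 fell, with log2 differences of -2.49, -2.18 and -2.12 (limma adjusted p 0.0248, 0.0156 and 0.0467). The epithelial markers had a median of -2.05 in the same comparison, and the part of epithelial cells in these basement membrane values was not tested. The proteoglycan VCAN was 1.94 higher without passing (limma adjusted p 0.114). MEA differed from CTRL in 5 of 13, where 2 rose, TGFBI (0.74, limma adjusted p 0.0757) and ELN (0.72, limma adjusted p 0.0890), and 3 fell (4 of 13 called by rank sum), with a median of -0.36. Between SEA and MEA 1 of 13 rose, SPP1 (3.48, limma adjusted p 0.0843; 0 called by rank sum), with a median of -0.22.

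Receptors through which cells bind matrix were measured by 5 tested transcripts, of which 3 rose in SEA against CTRL (3 by rank sum), with a median of 0.93 that was 0.19 with normexp. The hyaluronan receptor CD44 rose by 1.41 (limma adjusted p 0.00738), the integrin chain ITGA4 by 1.39 (limma adjusted p 0.0206) and the collagen receptor MRC2 by 0.93 (limma adjusted p 0.0628). The epithelial integrin chain ITGB4 was not called at either of its 2 probes (-0.77 and -0.72). In MEA against CTRL limma called 0 of 5 (2 at an unadjusted p below 0.05, 0 by rank sum; median 0.56, and 0.11 with normexp). When SEA and MEA were compared it also called 0 of 5 (2 at an unadjusted p below 0.05, 0 by rank sum), with a median of 0.30 that turned to -0.06 with scaling to the 75th percentile.

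Signals known to act on MMP or TIMP1 transcription in culture were measured by 7 transcripts, of which 5 rose in SEA against CTRL (4 by rank sum), with a median of 1.2. The cytokine IL1A rose by 2.31 (limma adjusted p 0.0129), OSM by 2.19 (limma adjusted p 0.0445) and IL1B by 1.87 and 1.2 at its 2 probes. TGFB1, which raises TIMP1 in many cells, rose by 0.86 (limma adjusted p 0.00986). TNF (0.50, limma adjusted p 0.250) and TGFB2 (-0.97, limma adjusted p 0.178) were not called. MEA and CTRL had 0 of 7 called by limma (1 at an unadjusted p below 0.05, 0 by rank sum; median 0.24), and between SEA and MEA 1 of 7 rose, IL1A (1.66, limma adjusted p 0.0843; 0 called by rank sum), with a median of 0.96.

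Transcription factors of the AP-1, ETS, EGR, NF-kappaB and RUNX families, known to act at promoters of MMP genes, were measured by 9 tested transcripts. Of these 8 rose in SEA against CTRL (8 by rank sum), against 16% of all tested, with a median of 1.26 against -0.01. EGR1 rose by 1.84 (limma adjusted p 0.0133), ETS2 by 1.66 (limma adjusted p 0.00977) and REL by 1.51 (limma adjusted p 0.00924). RUNX1 was not called there (0.35, limma adjusted p 0.426) but rose in MEA against CTRL (0.92, limma adjusted p 0.0529), where the median was 0.62 (0.37 with normexp) and the rank sum test called 2 of 9. EGR1 was the 1 of 9 that rose in SEA over MEA (1.99, limma adjusted p 0.0542), with a median of 0.62. With slide or replicate number as a block limma called 0 of the tested transcripts between SEA and MEA (659 and 638 at an unadjusted p below 0.05; 25 by rank sum without a block), so that the calls of EGR1, IL1A, SPP1 and the SERPINB2/SERPINB10 transcript in that comparison were lost. They were also lost with scaling to the 75th percentile and with normexp background correction.

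Markers of the other cells in BAL were counted in the same way. Of 7 macrophage transcripts 3 rose in SEA against CTRL, MPEG1 (1.59), EMR1 (1.56) and CD68 (0.84), where the rank sum test called 3, with a median of 0.49 that was 0.17 with normexp. MARCO (-1.12, limma adjusted p 0.162) and VSIG4 (-0.54, limma adjusted p 0.578) had the other sign and were not called. MEA had 2 of 7 higher than CTRL, both probes of the sialic acid receptor SIGLEC1, where the rank sum test called 2, with a median of 0.83 (0.51 with normexp). Comparing SEA with MEA, limma called 0 of 7 (3 at an unadjusted p below 0.05, 0 by rank sum; median -0.04). Those 3, MARCO (-1.32) and both SIGLEC1 probes (-0.48 and -0.66), were lower in SEA. Of 3 lymphocyte transcripts 2 rose in SEA against CTRL, TRAT1 (1.16) and CD247 (0.96), where the rank sum test called 2, with a median of 1.16 that was 0.44 with normexp. For lymphocyte transcripts in MEA against CTRL limma called 0 of 3 (0 at an unadjusted p below 0.05, 0 by rank sum), with a median of 0.03 that turned to -0.0030 with the authors' normalized values. For SEA over MEA it also called 0 of 3 (2 at an unadjusted p below 0.05, 0 by rank sum; median 0.96). Of 2 fibroblast markers DCN was left out by the filter on low values. THY1, the 1 tested, was not called in SEA against CTRL (-1.92, limma adjusted p 0.157, and -0.95 with normexp), in MEA against CTRL (-0.71) or between SEA and MEA (-1.21).

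The 3 transcripts most like each member over the 25 arrays were found by Pearson r across all tested transcripts. For MMP1 they were DDIT3, a stress-response transcription factor (r 0.919, and 0.853 after subtracting group means), RABGEF1 (0.915 and 0.871) and GNA13 (0.915 and 0.839). For MMP9 they were DUSP1, a phosphatase of MAP kinases (0.931 and 0.909), GNG2 (0.925 and 0.905) and HLX (0.920 and 0.907). For TIMP1 they were the neutrophil-attracting chemokines CXCL2 (0.856 and 0.837) and IL8 (0.845 and 0.803), and CFLAR, an inhibitor of caspase activation (0.821 and 0.759). MMP9 came at place 147 in the order of likeness to MMP1 (0.795 and 0.739), and TIMP1 had 0.685 and 0.643 with MMP1 and 0.684 and 0.639 with MMP9. These values describe 25 arrays that share 4 slides and carry no test.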

How the data were processed

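BAL cell RNA of 25 horses was measured on one-color arrays. The authors deposited, for each array, the processed intensity of every spot from Feature Extraction 9.5.1.1, not normalized between arrays, with other columns of quality flags, and a table of intensity values normalized by cyclic loess on a linear scale. Analysis used R 4.3.3 with limma 3.58.1 and, to read the files, data.table (version 1.17.8). Cyclic loess with a span of 0.7 was run for 3 iterations on the log2 intensities of all arrays together. Both spots of a probe entered its mean, except a spot marked as an outlier where the other was not. Over the 25 arrays 165 spots were marked, and 1 probe had both spots marked on an array. Transcripts under 4.5 in at least 19 arrays were left out, which left 4930. The study states this threshold without its scale, log2 was inferred here, and fewer transcripts were left than in the study. lmFit and eBayes compared the arrays of 2 groups. A call needed an adjusted p (Benjamini-Hochberg) under 0.1 with a fold change of 1.5 or more. The steps were tested on simulated data.

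Correlations within groups had two-sided permutation tests, exact for 7 and 8 horses and with 1e+05 resamples for 10. Cytology percentages and sex came from the study's text, not from the labels, and were matched to arrays by the horse code in each array title. The study's cytology results carry the same horse codes, and that a code names the same horse in both could not be checked further. The 2 farthest horses were judged on the percentage, the marker mean or the first gene of a pair. Named genes were MMP1, MMP9 and TIMP1, up to 4 called transcripts per list by size of change, transcripts not called, and the 3 transcripts most like each member. The members and lists were chosen with earlier results of these data known, and 2 genes of the lists are not reported here. Symbols came from the study's tables, which name 1865 transcripts, 1684 of them tested. Alternatives were quantile normalization, 75th percentile scaling, normexp correction with the same 4930 transcripts, the authors' normalized values, other filters and thresholds, an exact rank sum test, 1 fit to all groups, sex, slide, scan day or replicate number in the fit, and leaving out each horse in turn. Replicate numbers did not pair horses, since same-number correlations were above 0.1 in 3 of 7, 4 of 7 and 3 of 8 numbers. Figures were drawn with Python 3.11.15 and matplotlib 3.10.9.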

Additional observations from a re-analysis of the deposited data

Results flagged for a closer look

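Certain values stood far from their own groups, judged by the gap to the nearest horse as a share of the group's range. MMP9 in MEA 3 was the highest of its group at 12.83, with a gap of 0.551 of the range. TIMP1 in SEA 1 was the lowest of its group at 12.30, with a gap of 0.611 of the range. These are 2 of 15 sets of values examined (3 genes and 2 balances in 3 groups), and chance marks about 1 in 20. The neutrophil marker mean was highest of all horses in MEA 3 (14.71) and lowest of SEA in SEA 1 (8.03), and its part in these values was not tested.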

How the results depend on the processing

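Between SEA and CTRL, MMP1 (3.01 to 3.25) and TIMP1 (1.19 to 1.52) stayed called under 15 of 15 alternatives and without any single horse (2.93 to 3.29 and 1.17 to 1.58). MMP9 (1.65 to 1.95, and 1.53 to 2.27 without a horse) lost its call by rank sum and at an adjusted p below 0.05, both at 1.88. Within slide 1 the differences were 2.16 for MMP1, -0.90 for MMP9 and -0.52 for TIMP1, and within slide 4 they were 1.39 for MMP1 and -0.24 for TIMP1. The number of transcripts called was 1612, and 842 with normexp correction (1238 to 1706 without a horse).

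Between MEA and CTRL, 482 transcripts were called, against 157 with normexp correction, 210 at an adjusted p below 0.05, 183, 220 and 138 with slide, scan day or replicate number as a block, and 156 to 750 without a horse. That count moved over 1.5 times without CTRL 1 (156), CTRL 6 (177), CTRL 4 (195), MEA 2 (291), MEA 5 (301), MEA 9 (312), MEA 10 (320) or MEA 7 (750). Members were called under 0 of 15 alternatives by limma or rank sum. Without a horse MMP1 ran from 0.28 to 0.78, MMP9 from -0.22 to 0.58 (below 0 without CTRL 1, CTRL 4, CTRL 5 or MEA 3) and TIMP1 from 0.61 to 1.06. Over the 15 alternatives they ran from 0.55 to 0.91, 0.0023 to 0.60 and 0.76 to 0.98. Within slides, MMP1 was 1.9 on slide 2, and TIMP1 was 2.64 on slide 3, with 1 MEA-affected horse, and -0.84 on slide 4, with 1 CTRL horse.

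Between SEA and MEA, 110 transcripts were called, and the count moved with most settings. It was 0 by limma with scaling to the 75th percentile, normexp correction, slide as a block and replicate number as a block, where 992, 848, 659 and 638 transcripts had an unadjusted p below 0.05. The rank sum test called 25, quantile normalization gave 39, an adjusted p below 0.05 gave 2, scan day as a block 2, 1 fit to all groups 279 and sex in the fit 208. Leaving out any of the 18 horses moved it over 1.5 times, from 2 to 559. For SEA 1 to 8 in turn it was 355, 2, 18, 43, 27, 214, 29 and 38, and for MEA 1 to 10 it was 235, 35, 559, 63, 328, 61, 4, 16, 10 and 3. Scaling to the 75th percentile moved the median of all tested transcripts to -0.13. MMP1 (2.33 to 2.84 without a horse) lost its call with scaling to the 75th percentile (2.6), normexp correction (2.43), rank sum and an adjusted p below 0.05 (2.53), slide block (1.99), scan day block (2.15) and replicate block (2.47). MMP9 (1.48 to 2.09 without a horse) was called without MEA 3 or SEA 1, and ran from 1.52 to 1.74 over the alternatives. TIMP1 ran from 0.36 to 0.78 without a horse and from 0.08 (slide block) to 0.59 over the alternatives. Within slide 1, with 1 SEA-affected horse, MMP9 was -0.87 and TIMP1 -1.01. Within slide 3, with 1 MEA-affected horse, MMP9 was 3.19 and TIMP1 -0.79. The causes were not tested.

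Among 90 recomputed correlations with percentages 13 changed sign. MMP9 with neutrophils in MEA was 0.0301 (75th percentile), 0.0352 (quantile) and 0.00890 (authors' values), and TIMP1 with macrophages in SEA was -0.0473, -0.232 and -0.137. With normexp correction MMP1 with neutrophils in CTRL was -0.115 and TIMP1 with neutrophils in SEA was -0.0346. Without the 2 farthest horses, macrophage relations were 0.444, 0.209 and 0.378 for MMP1, MMP9 and TIMP1 in CTRL, and -0.0235 and 0.232 for MMP9 and TIMP1 in MEA.

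With each horse left out in turn, the MMP1 balance ran from 1.68 to 1.94 for SEA minus CTRL and 1.79 to 2.23 for SEA minus MEA. For MEA minus CTRL it ran from -0.43 to 0.0094, so that its sign turned. The MMP9 balance ran from 0.30 to 0.82, -0.89 to -0.37 and 0.94 to 1.41 for SEA minus CTRL, MEA minus CTRL and SEA minus MEA. Under 4 other normalizations both balances moved by less than 1 pooled SD. Within slides some moved by more, such as the MMP1 balance of SEA minus CTRL on slides 1 (2.68) and 2 (1.2), that of SEA minus MEA on slides 1 to 3 (3.2, 0.58 and 3.38), and the MMP9 balance on slide 3, at -3.36 for MEA minus CTRL and 3.98 for SEA minus MEA. On slide 3 the MEA group was MEA 6 alone, which had the lowest MMP9 balance of all horses. For MEA minus CTRL the MMP1 balance within slides 1 to 4 was -0.52, 0.62, -1.36 and 0.18. That of MMP9 was -0.52, 0.40, -3.36 and -0.54, so that both signs varied between slides. Normexp correction also moved the medians of several lists, and between SEA and MEA, where few of their transcripts were called, it gave -0.03 for other metzincins, -0.02 for serine protease inhibitors, -0.0057 for matrix components, 0.09 for matrix receptors, -0.38 for epithelial and 0.36 for lymphocyte markers, all nearer to 0, and -0.14 for macrophage markers, farther from it. The gap between the lowest SEA and the highest CTRL horse was 0.87 to 1.07 for MMP1 and 0.27 to 0.37 for its balance over 4 other normalizations, a check chosen after seeing the data, as were the scan day block, the kept outlier spots, the 9 member pairs and the 24 marker relations. The replicate block left out SEA 8 or MEA 8, 9 and 10 where the other group had no such number. Signal over background was no limit for these 3 probes, but it was one for the serine protease inhibitor list, as given above.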
